A study of Mus musculus with 10 samples.

Results

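The genes of the proteasome were followed by subcomplex in the tibialis anterior muscle of mice with and without a tumor. Members were the protein-coding genes whose symbol begins with Psma, Psmb, Psmc, Psmd, Psme, Psmf or Psmg followed by a digit. This took in 50 of the 39179 genes listed in each sample. Symbols came from matching the Ensembl identifiers to GENCODE release M21, and all 50 protein-coding genes of that annotation with such a symbol were listed. By role, 8 were alpha subunits and 8 were beta subunits of the 20S core, 3 were inducible beta subunits of the immunoproteasome, 6 were ATPases and 14 were non-ATPase subunits of the 19S cap, 5 were activator genes, 1 was the inhibitor Psmf1 and 4 were assembly factors. The remaining member, Psmc3ip, shares the prefix but encodes a meiotic recombination factor, so it was kept in counts over all members and placed in no subcomplex.

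Total RNA was sequenced from 10 mice, 1 library per mouse. The 6 LLC mice received Lewis Lung Carcinoma cells, a line of mouse lung tumor cells, under the skin of each flank, and developed cachexia, the loss of body and muscle mass in cancer. The 4 Control mice received phosphate-buffered saline (PBS) in each flank and had no tumor. The sample labels give C57BL/6J mice injected at 10 weeks of age and 23 days of tumor development, whereas the series' design text and the study's methods give male C57BL/10 mice of 8 weeks and 22 days. The labels name no engineered allele in either group. The study's methods say that samples were picked at random, and also that the 6 LLC mice sequenced were the ones alive at the end. Its results, however, report more LLC mice alive at the end than were sequenced. All 10 libraries were run in 1 lane.

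The proteasome is the protease that degrades proteins tagged with ubiquitin. Its 20S core is a barrel of alpha and beta rings with the active sites inside, and its 19S cap binds ubiquitin chains, unfolds the substrate with a ring of ATPases and feeds it into the core. In skeletal muscle it carries out much of the breakdown of contractile proteins during wasting. Interferon exchanges the catalytic beta subunits for inducible ones, which gives the immunoproteasome.

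Total counts were 16693209 to 21303084 per sample. Values are given as CPM, counts brought to a common library size with TMM factors, and differences as log2 fold changes of LLC over Control. LLC 1 and LLC 5 had the lowest share of counts from mitochondrial genes, which was 21.99% in LLC 1, 22.92% in LLC 5, 25.8% to 27.94% in the other LLC samples and 28.45% to 30.67% in Control. The defining markers of fast muscle fibers were present in every library. Their summed level over 8 genes was 119300 to 125700 CPM in Control and 79490 to 128500 CPM in LLC, with the lowest value in LLC 1. Of 11 leukocyte markers, 7 were tested and 5 rose in LLC (edgeR, quasi-likelihood, Benjamini-Hochberg adjusted), beside 1.65% of all genes. These were Ptprc, Itgam, Csf3r, S100a8 and S100a9. Cd68 and Cd74 were not called, at log2 fold changes of 0.50 and -0.36. Cd74 alone had 10.7 to 16.8 CPM in Control and 5.55 to 18.3 in LLC. S100a9 had 0.162 to 0.938 CPM in Control and 13.9 to 33.5 in LLC. The summed level of the 11 markers was 12.98 to 20.6 CPM in Control and 38.05 to 84.37 CPM in LLC, 42.53 in LLC 1 and 84.37 in LLC 5. The defining neutrophil marker Ly6g was at 0 in every Control library and had 0 to 4 counts in LLC, too few to be tested. The part of these shifts in the results below was not tested. In whole muscle, fewer cells of a type and less RNA per cell cannot be told apart.

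Genes of the 20S core and the 19S cap had higher values in LLC, most of all in LLC 1 and LLC 5, but no single gene passed the test. The median log2 fold change was 0.44 for the alpha genes, 0.34 for the beta genes, 0.55 for the ATPases and 0.46 for the non-ATPase genes, against -0.41 for the immunoproteasome genes, 0.05 for the activators and -0.0094 for the assembly factors, the last of which was 0.001 with median-of-ratios scaling. In limma voom, which gives each library a weight by its spread, the first 4 medians were 0.14, 0.08, 0.24 and 0.18. None of the 48 members tested was past the threshold, which was a Benjamini-Hochberg adjusted p of at most 0.05 and at least a 1.5-fold difference in edgeR (quasi-likelihood). Over all 12690 genes tested, 5.63% were past it, 1.65% with a higher level in LLC. The smallest adjusted p of a member was 0.0937, for Psmd2. At an unadjusted p of at most 0.05, 17 members were higher and 1 was lower in LLC, against 12.7% and 14.6% of all genes. DESeq2's Wald test with the same limits called 3 members higher, Psmd2, Psmd4 and Psmc2, against 3.06% of all genes, and limma voom called 0. The study, which used DESeq2 on these samples, lists Psmd4, Psma7 and Psmc2 among its up-regulated genes. It places them in a cluster whose expression varied between LLC samples. It also reports that every deregulated gene of its proteasome complex term was up-regulated, and RT-qPCR of some proteasome genes. For Psma7 the DESeq2 Wald test here gave an adjusted p of 0.0882, so it was not called. Its unadjusted p in edgeR's quasi-likelihood test was 0.0351, at 1.76-fold. The study's methods name no adjustment of p, while its figure captions give a false discovery rate below 0.05. The log2 fold change was positive for 40 members and negative for 8, with a median of 0.40 beside 0.0019 over all genes tested.

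The 31 constitutive subunits with a Psm symbol of the 26S particle, meaning the 20S core with its 19S caps, held most of this difference. These were the tested Psma genes, Psmb1 to Psmb7, the ATPases, and the Psmd genes other than Psmd5, Psmd9 and Psmd10, whose products are assembly chaperones of the cap. The cap subunits Adrm1 and Sem1 have no Psm symbol and are not among the 31. Their log2 fold changes were 0.78 and -0.0008. In edgeR all 31 had a positive log2 fold change (Psmb5 was at -0.01 in limma voom), from 0.14 to 0.98 with a median of 0.50. An unadjusted p of at most 0.05 was reached by 16, against 12.7% of all genes in that direction. Of these 31 genes, 8 had every LLC value above every Control value (Psmc2, Psmc5, Psmc6, Psmd1, Psmd2, Psmd3, Psmd7 and Psmd11), against 6.4% of all genes tested. In 13 more, 5 of the 6 LLC values were above every Control value, and the share of all genes with that pattern was not counted. Without LLC 4, 22 of the 48 members tested, not only of these 31, had no overlap, in place of 8. The share of all genes without LLC 4 was not counted, so the 22 has no figure to set beside it. No member had every LLC value below Control, against 9.57% of all genes.

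The difference was carried unequally by the LLC mice. LLC 1 held the highest value for 29 of the 31 genes and LLC 5 for the other 2, LLC 6 came next in 26, and LLC 4 was the lowest in 28. Relative to the Control mean, the median level over the 31 genes was 2.25-fold in LLC 1, 1.73-fold in LLC 5, 1.24-fold in LLC 6, 1.12-fold in LLC 2, 1.08-fold in LLC 3 and 0.967-fold in LLC 4. The Control samples lay between 0.959-fold and 1.03-fold. The median of LLC 4 was thus within the Control range and that of LLC 1 was far above it. By gene, LLC 4 was above every Control sample in the 8 genes without overlap. In others, such as Psma7 and Psmb5, it was below every Control sample. The median coefficient of variation over samples was 4.38% in Control and 36.3% in LLC, and no value over all genes is given here. LLC 1 also stood apart over all genes. Pairs of LLC 1 with another LLC sample differed by 111.06 to 181.16 chi-square per degree of freedom, other LLC pairs by 7.92 to 56.41. The spread between mice is thus not particular to these 31 genes. Without LLC 1 the median log2 fold change of the 31 genes was 0.30, and without both LLC 1 and LLC 5, a choice made after their values were seen, it was 0.15. LLC 1 and LLC 5 were also the libraries with the lowest mitochondrial share and LLC 1 the one with the lowest sum of fiber markers, and the part of either in the difference was not tested.

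**Figure D1:**
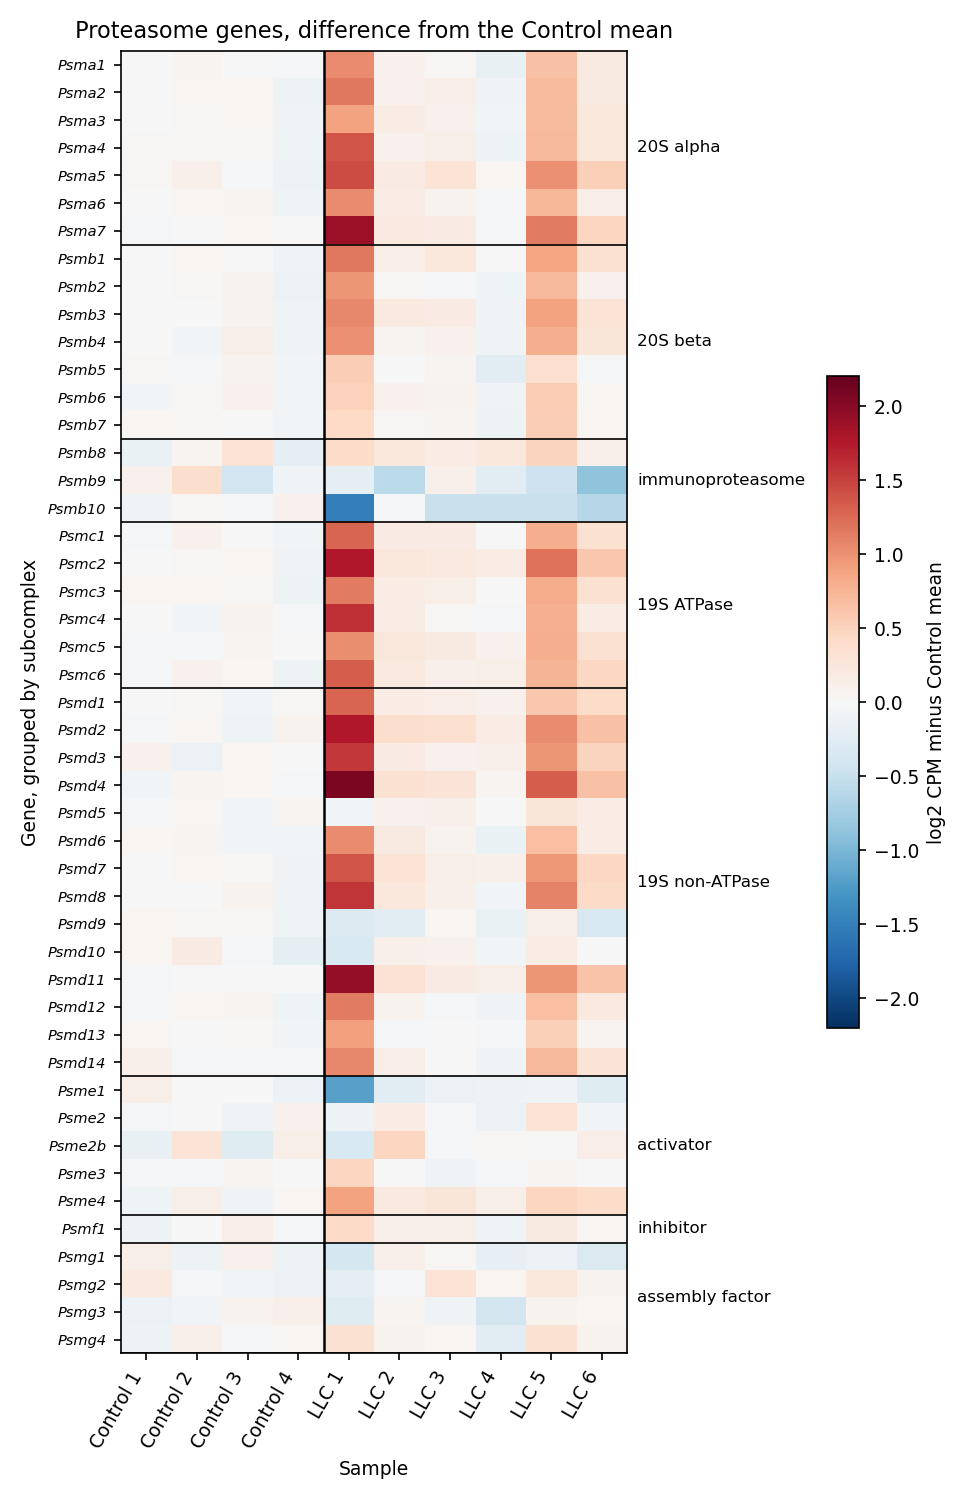
Heat map of 47 tested members in rows, grouped by subcomplex, and the 10 samples in columns; color is log2 CPM minus the Control mean, red for higher and blue for lower. Core and cap rows are darkest in LLC 1 and next in LLC 5, other than Psmb6, Psmb7, Psmd5, Psmd9 and Psmd10, which are highest in LLC 5. LLC 4 is close to Control, and Psmb10 and Psme1 are blue in LLC 1.

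Members that differed together were compared in their promoters, taken from RefSeq (GRCm38.p6) as 250 bases before to 50 bases after the annotated start. Of the 50 members, 42 were matched, and Psma8, Psmb1, Psmb2, Psmb7, Psmc3, Psmd3, Psmd7 and Psmg2 were not. Both strands were searched for 4 short motifs, none of which overlapped another in the windows printed. TGACNNNGC, the core of the element bound by Nfe2l1 and related factors, which drive proteasome genes when proteasome activity is short, was in 4 of the 25 core and cap promoters matched (16.0%; Psmb5, Psmb6, Psmc6 and Psmd12), against 12.4% of all 32851 promoters. CCAAT was in 10 of 25 (40%) against 37.4% of all, and GAAANNGAA, a core of interferon-stimulated elements, was in 3 of 25 (12.0%) against 8.56%. GTAAACA, a motif of FoxO factors, which are known regulators of muscle wasting genes, was in none of the 25 and in 3.65% of all promoters. Each of these shares lay near that of all promoters, and a match or its absence says only which letters the window holds.

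The windows of 4 members are shown because they span the range of values described below: Psmd4 had the largest log2 fold change, Psmc6 and Psmb5 hold TGACNNNGC and differ in the size of theirs, and Psmb10 had the most negative value. Capitals mark the motif letters on either strand. In Psmd4 (chr3:95042565-95042864, minus strand) these are 3 CCAAT boxes and 1 GAAANNGAA match, in Psmc6 (chr14:45329574-45329873, plus strand) and Psmb5 (chr14:54617946-54618245, minus strand) 1 TGACNNNGC match each, at -227 and -47 from the start, and in Psmb10 (chr8:105938343-105938642, minus strand) there are none.
Psmd4: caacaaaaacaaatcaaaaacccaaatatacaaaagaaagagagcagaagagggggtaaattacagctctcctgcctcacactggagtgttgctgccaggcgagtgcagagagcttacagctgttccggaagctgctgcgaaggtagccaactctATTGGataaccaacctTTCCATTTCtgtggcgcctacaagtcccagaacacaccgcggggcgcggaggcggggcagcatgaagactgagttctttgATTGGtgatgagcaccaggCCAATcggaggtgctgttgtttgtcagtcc
Psmc6: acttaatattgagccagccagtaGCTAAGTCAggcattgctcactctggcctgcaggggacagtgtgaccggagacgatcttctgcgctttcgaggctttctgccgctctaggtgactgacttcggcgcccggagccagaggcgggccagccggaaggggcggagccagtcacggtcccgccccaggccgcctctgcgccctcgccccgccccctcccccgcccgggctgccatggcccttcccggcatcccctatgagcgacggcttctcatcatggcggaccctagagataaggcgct
Psmb5: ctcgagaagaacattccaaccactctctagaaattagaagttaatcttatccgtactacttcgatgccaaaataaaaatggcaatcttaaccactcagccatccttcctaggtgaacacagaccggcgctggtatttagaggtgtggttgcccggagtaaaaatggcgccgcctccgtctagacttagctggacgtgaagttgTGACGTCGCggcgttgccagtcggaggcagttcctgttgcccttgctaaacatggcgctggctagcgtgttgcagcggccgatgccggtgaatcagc
Psmb10: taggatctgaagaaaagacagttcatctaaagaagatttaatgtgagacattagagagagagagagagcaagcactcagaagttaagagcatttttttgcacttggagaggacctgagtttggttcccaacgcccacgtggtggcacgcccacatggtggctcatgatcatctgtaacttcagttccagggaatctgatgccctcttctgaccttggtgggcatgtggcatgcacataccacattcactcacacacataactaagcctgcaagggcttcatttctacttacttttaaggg

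The alpha subunits form the outer rings of the core and its gate. All 7 tested had a positive log2 fold change, from 0.37 to 0.82 with a median of 0.44 (0.25 without LLC 1). Psma7, which the study's text names from these same samples, had 65.1, 66.5, 68.5 and 66.4 CPM in Control. In LLC it ranged from 64.3 in LLC 4 through a median of 84.97 to 248 in LLC 1, with 147 in LLC 5. LLC 4 lay below all Control samples and the other 5 LLC samples lay above. The log2 fold change was 0.82 ± 0.34 (SE; edgeR, Benjamini-Hochberg adjusted p = 0.154), and 0.47 ± 0.19 without LLC 1. Psma1 had the smallest difference of the group. Its Control values were 62.1, 65.2, 62.4 and 61.3 CPM and its LLC values ran from 55.7 in LLC 4 over a median of 69.5 to 129 in LLC 1. The groups overlapped, and the log2 fold change was 0.37 ± 0.21 (adjusted p = 0.265 in edgeR with Benjamini-Hochberg adjustment). The other alpha genes, Psma2 to Psma6, had log2 fold changes of 0.38 to 0.67, the largest in Psma5, of whose 100-base words 23.7% also occur in transcripts of other genes. The testis-specific Psma8 was not tested, with at most 2 counts in any library (0.101 CPM).

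Among the 7 constitutive beta genes tested, the 3 that carry the active sites had the smallest differences. The median log2 fold change was 0.19 for the catalytic Psmb5, Psmb6 and Psmb7 and 0.45 for the structural Psmb1, Psmb2, Psmb3 and Psmb4, and no gene-wise test compares these sets. Psmb5 encodes the chymotrypsin-like site. Its CPM was 73.9, 71.1, 77.2 and 70.1 in Control and 62.1 in LLC 4 to 106 in LLC 1 with a median of 74.6 in LLC. Psmb6, the caspase-like site, had 98.99, 106, 111 and 99.5 CPM in Control, and in LLC a low of 97.9, a median of 109.9 and a high of 152 in LLC 5. Psmb7, the trypsin-like site, had 190.1, 188, 184 and 178 CPM in Control, and in LLC a low of 172, a median of 192 and a high of 268 in LLC 5. For each of the 3, LLC 1 and LLC 5 were above all Control samples, LLC 4 was below them and the groups overlapped. The log2 fold changes were 0.14 ± 0.14 for Psmb5, 0.22 ± 0.13 for Psmb6 and 0.19 ± 0.13 for Psmb7, with edgeR's Benjamini-Hochberg adjusted p from 0.303 to 0.52. Without LLC 5 the values were 0.09, 0.14 and 0.11, and without LLC 1 Psmb5 was at 0.05. With LLC 1 and LLC 5 both left out, Psmb5 was at -0.05, and in limma voom it was at -0.01.

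Of the structural beta genes, Psmb1 had the largest and Psmb2 the smallest difference. Psmb1 had 77.01, 78.6, 76.95 and 72.3 CPM in Control, and 76.4 to 171 CPM with a median of 92.7 in LLC. LLC 4 was inside the Control range and the other 5 lay above it, for a log2 fold change of 0.52 ± 0.21 (edgeR, Benjamini-Hochberg adjusted p = 0.145). Psmb2 had 55.7, 56.3, 58.6 and 50.8 CPM in Control, and 51.7 to 108 CPM with a median of 57.98 in LLC, so that 3 LLC samples were above Control. Its log2 fold change was 0.34 ± 0.21 (edgeR, Benjamini-Hochberg adjusted p = 0.296), and 0.00 after rounding (-0.0035) without LLC 1 and LLC 5. Psmb3 and Psmb4 lay between, at 0.49 and 0.42. Psmb11, the thymus-specific beta subunit, was not tested, with 5 counts at most (0.247 CPM).

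The 6 ATPases form the ring that unfolds substrates. All were higher in LLC by value, with log2 fold changes of 0.49 to 0.83 and a median of 0.55 (0.35 without LLC 1). An unadjusted p of at most 0.05 was reached by 5 of them, against 12.7% of all genes in that direction. None passed in edgeR after Benjamini-Hochberg adjustment, where the smallest adjusted p was 0.11. Psmc2, named in the study's text from these samples, had 98.0, 100.5, 102 and 93.4 CPM in Control. Every LLC sample was above that, from 110.5 in LLC 4 over a median of 133 to 333 in LLC 1. The log2 fold change was 0.83 ± 0.30, with an adjusted p of 0.112 in edgeR (Benjamini-Hochberg) and 0.0493 in DESeq2. Psmc5 had the smallest difference of the ring, with 100.4, 102, 108 and 105 CPM in Control. In LLC it ran from 111 over a median of 127 to 211, again without overlap, and the log2 fold change was 0.49 ± 0.18 (edgeR, Benjamini-Hochberg adjusted p = 0.11). Psmc6 also did not overlap, while Psmc1, Psmc3 and Psmc4 did.

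The non-ATPase subunits of the cap recognize and process ubiquitin chains and hold the cap together. Without the 3 chaperones, their 11 genes had log2 fold changes of 0.28 to 0.98 with a median of 0.63 (0.42 without LLC 1). Psmd4, a ubiquitin receptor that the study's text names, had the largest of all members. Its CPM was 105.3, 115.5, 114 and 107 in Control. In LLC it was 463 in LLC 1, 279 in LLC 5, 173 in LLC 6, 139 in LLC 2, 134 in LLC 3 and 114.5 in LLC 4. Only LLC 4 lay within the Control range. The log2 fold change was 0.98 ± 0.36 (edgeR, Benjamini-Hochberg adjusted p = 0.116; DESeq2 0.0461) and 0.61 ± 0.21 without LLC 1. Psmd2 and Psmd11 are given outside the rule for named genes, after their values were seen. Psmd2, a scaffold of the cap base, had 244, 254.5, 233 and 262 CPM in Control and 277 to 842 CPM with a median of 357 in LLC. The groups did not overlap, and the log2 fold change of 0.84 ± 0.28 had the smallest adjusted p of the members (0.0937 in edgeR, 0.0319 in DESeq2). Without LLC 1 it was 0.56 ± 0.15 with an adjusted p of 0.0289 in edgeR, under 1.5-fold and so not past the threshold. Psmd11, whose product links the lid to the base, had 76.5 to 78.4 CPM in Control and 84.6 to 296 CPM in LLC, for 0.84 ± 0.32. Psmd13 had the smallest difference of the 11, at 0.28, and Psmd14, the deubiquitinase of the lid, was at 0.42.

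The 3 chaperones of cap assembly had a median log2 fold change of -0.0043, with 1 positive and 2 negative. That median is the value of Psmd10, which was at 0.0046 in DESeq2 and 0.06 without LLC 1. Psmd9 had 19.8, 19.6, 19.5 and 18.1 CPM in Control, and 15.3 to 20.9 CPM with a median of 16.8 in LLC. LLC 5 was above and 4 LLC samples were below Control, and the log2 fold change was -0.13 ± 0.11 (edgeR, Benjamini-Hochberg adjusted p = 0.419). Of its exonic length, 25.5% overlaps a gene on the other strand, so its count is uncertain where strand was not used. Psmd5 and Psmd10 had log2 fold changes of 0.10 and -0.0043. All 3 were highest in LLC 5, and LLC 1 was the lowest LLC sample for Psmd5 and Psmd10.

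**Figure D2:**
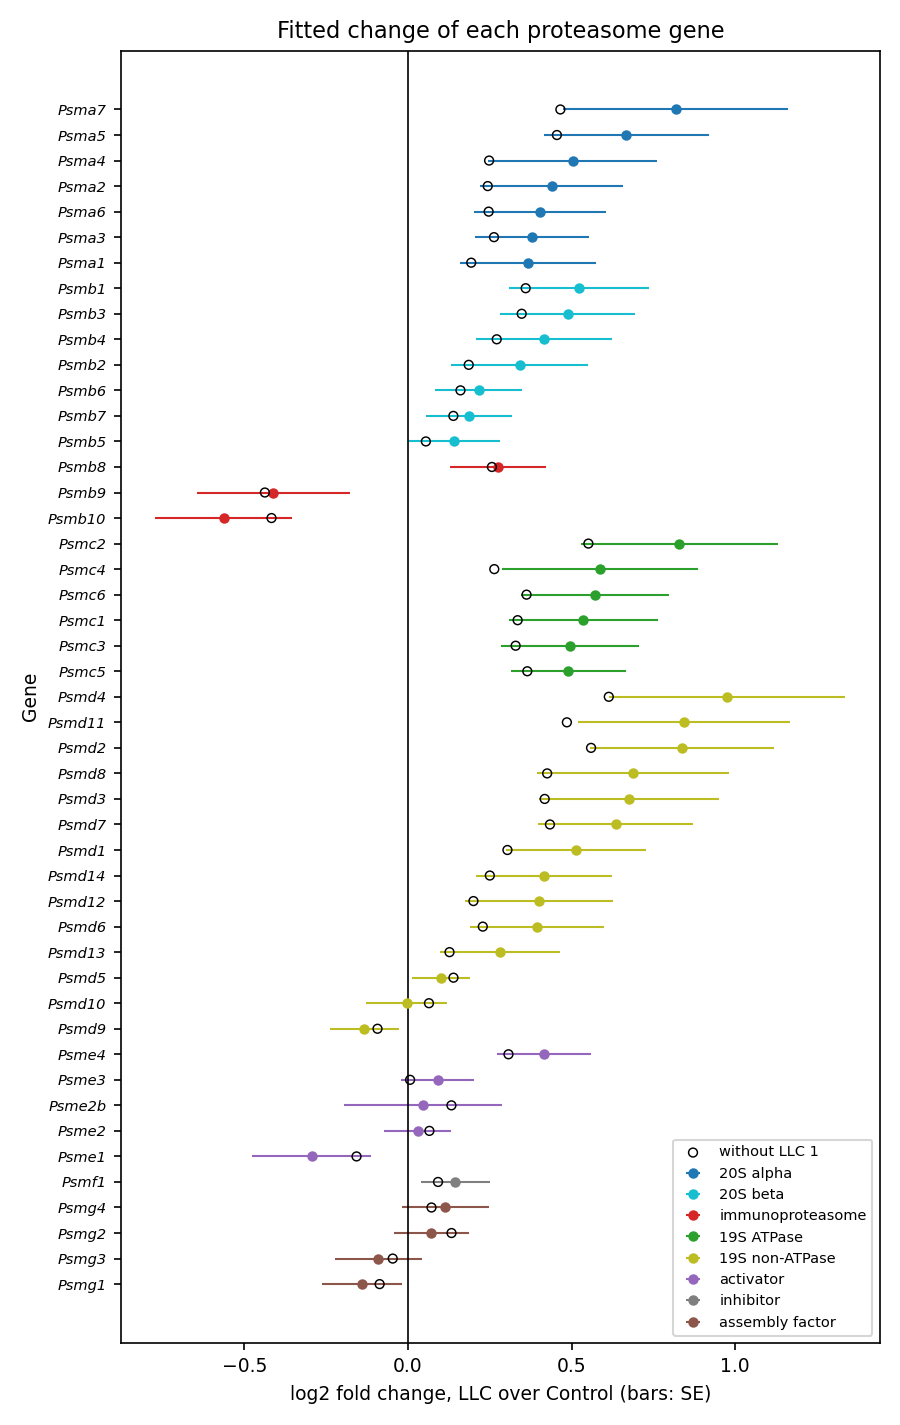
Log2 fold change of LLC over Control for 47 tested members, colored by subcomplex, with bars of 1 SE; open circles give the value without LLC 1. Every constitutive core and cap subunit with a Psm symbol, other than the chaperones Psmd5, Psmd9 and Psmd10, lies to the right of 0 and moves toward it without LLC 1. Psmd4 lies farthest right at 0.98 and Psmb10 farthest left at -0.56.

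The 3 inducible catalytic genes did not move in 1 direction. Psmb8, which replaces Psmb5 in the immunoproteasome, had 2.07, 2.42, 2.87 and 1.97 CPM in Control and 2.52 to 3.27 CPM with a median of 2.72 in LLC. Psmb9, which replaces Psmb6, had 1.43, 1.78, 0.973 and 1.26 CPM in Control and 0.671 to 1.45 CPM with a median of 1.02 in LLC. Psmb10, which replaces Psmb7, had 8.16, 8.79, 8.44 and 9.26 CPM in Control and 2.93 in LLC 1 to 8.36 in LLC 2 with a median of 6.12 in LLC. For Psmb10, 5 of 6 LLC samples lay below every Control sample, while 2 were above Control for Psmb8 and 3 below for Psmb9. The log2 fold changes were 0.27 ± 0.15 for Psmb8 (edgeR, Benjamini-Hochberg adjusted p = 0.237), -0.41 ± 0.23 for Psmb9 (0.264; -0.25 without Control 2) and -0.56 ± 0.21 for Psmb10 (0.119). Psmb10 was the only member with an unadjusted p of at most 0.05 in the lower direction, and without LLC 1 its adjusted p was 0.0379 in edgeR at -0.42 ± 0.12, under 1.5-fold. Psmb9 rests on 12 to 36 counts a library, and 14.7% of the exonic length of Psmb8 and 5.79% of that of Psmb9 overlap a gene on the other strand.

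Each inducible gene was also set against the constitutive gene it replaces, as a ratio of counts per kilobase of exon within a library, which no library scaling can move. The percentages depend on the exons counted (with the basic set, Control means per kilobase were 6.61 for Psmb10 against 159.5 for Psmb7), whereas the log2 differences between groups do not. Psmb10 was at 8.61%, 9.36%, 9.21% and 10.4% of Psmb7 in Control. In LLC it was at 2.34% in LLC 1, 4.6% in LLC 5, 5.85% in LLC 6, 6.35% in LLC 3, 7.12% in LLC 4 and 8.87% in LLC 2. Only LLC 2 overlapped Control. The log2 ratio was -3.41 ± 0.11 (SD, n = 4) in Control and -4.21 ± 0.67 (SD, n = 6) in LLC, a difference of -0.79 (exact permutation test over all 210 assignments of the labels, two-sided, p = 0.019, adjusted to 0.0571 over the 3 ratios by Benjamini-Hochberg; the smallest p possible was 0.00952). Psmb9 was at 0.45% to 0.858% of Psmb6 in Control and 0.317% to 0.676% in LLC, a log2 difference of -0.61 (exact permutation p = 0.0667, adjusted 0.1), with 4 of 6 LLC samples below Control. Psmb8 was at 0.743% to 0.988% of Psmb5 in Control and 0.773% to 1.17% in LLC, a log2 difference of 0.17 (exact permutation p = 0.238, adjusted 0.238). None of the 3 ratios passed after adjustment over all samples, although the adjusted exact permutation p was 0.0476 for Psmb10 without Control 3, LLC 2 or LLC 3, for Psmb9 without Control 3 or LLC 3 and for Psmb8 without Control 3.

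**Figure D3:**
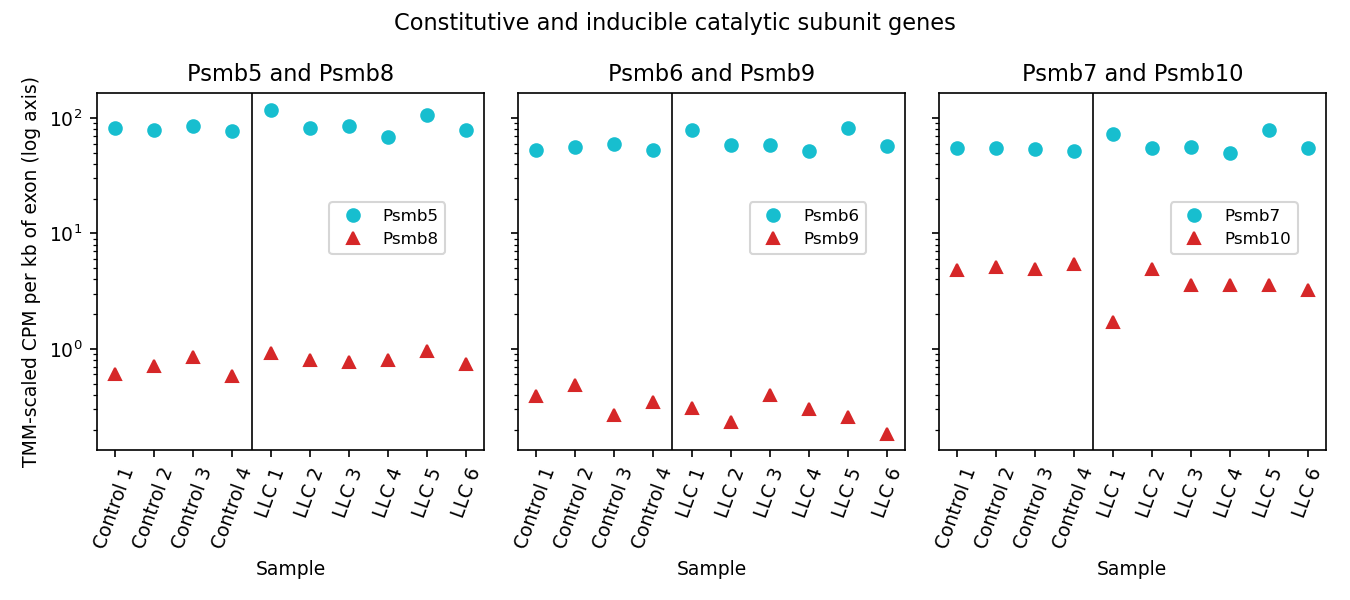
TMM-scaled CPM per kilobase of exon on a log axis for each constitutive catalytic gene (circles) and the inducible gene that replaces it (triangles), by sample, with a line between the 4 Control and 6 LLC samples. Psmb10 is lowest in LLC 1, where Psmb7 is above all Control samples.

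The activators open the core in place of the 19S cap. Psme1 and Psme2 encode the interferon-inducible ring PA28, Psme3 a nuclear ring of the same family and Psme4 the large single-chain activator PA200. Psme1 had 27.2, 25.1, 25.1 and 22.7 CPM in Control and 10.9 in LLC 1 to 23.6 in LLC 5 with a median of 22.1 in LLC. LLC 1 lay far below the other LLC samples, and the log2 fold change was -0.29 ± 0.18 (edgeR, Benjamini-Hochberg adjusted p = 0.298), and -0.16 without LLC 1. Psme2 had 16.8, 17.1, 16.1 and 18.1 CPM in Control and 15.5 to 20.97 CPM with a median of 16.6 in LLC, at 0.03 ± 0.10. The groups overlapped, and the value was negative with upper-quartile scaling, with the replicate number as a block and without LLC 5. Psme2b, a near-identical copy of Psme2 that shares 52.0% of its 100-base words with other transcripts, had 8 to 14 counts a library and is uncertain.

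Psme3 had 47.9, 46.96, 50.4 and 49.1 CPM in Control and 46.3 to 67.7 CPM with a median of 48.8 in LLC, with LLC 5 at 50.9 and LLC 1 at the top of that range. Its log2 fold change was 0.09 ± 0.11 (edgeR, Benjamini-Hochberg adjusted p = 0.609), 0.0063 without LLC 1 and -0.0092 in limma voom. Psme4 had 332, 387.3, 335 and 362 CPM in Control, and 386.7 in LLC 4 to 655 in LLC 1 with a median of 447 in LLC. Of its LLC samples, 5 were above every Control sample and LLC 4 was just under the highest of them. The log2 fold change was 0.42 ± 0.14 (adjusted p = 0.101 in edgeR with Benjamini-Hochberg adjustment), and 0.31 ± 0.09 without LLC 1 (adjusted p = 0.0352, under 1.5-fold). The inhibitor gene Psmf1, whose product PI31 binds the core, had 12.0, 12.99, 14.4 and 12.7 CPM in Control and 12.4 to 17.4 CPM with a median of 14.2 in LLC. The groups overlapped, at 0.14 ± 0.11 (edgeR, Benjamini-Hochberg adjusted p = 0.378).

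The assembly factors of the 20S core, Psmg1 to Psmg4, had a median log2 fold change of -0.0094, with 2 positive and 2 negative. Psmg4 had the highest, with 4.55, 5.33, 4.81 and 5.09 CPM in Control and 4.13 to 6.27 CPM with a median of 5.2 in LLC. Psmg1 had the lowest, with 8.37, 7.06, 8.11 and 7.07 CPM in Control and 5.81 to 8.3 CPM with a median of 6.85 in LLC. Both overlapped between groups, at 0.11 ± 0.13 and -0.14 ± 0.12 (edgeR, Benjamini-Hochberg adjusted p = 0.585 and 0.463). Psmg2 was at 0.07 and Psmg3 at -0.09. The member outside the particle, Psmc3ip, had 14 to 27 counts a library and a log2 fold change of -0.12.

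Averaged over the tested genes of a subcomplex, the difference in log2 CPM from the Control mean was 1.43 in LLC 1, 0.87 in LLC 5, 0.40 in LLC 6, 0.21 in LLC 2, 0.12 in LLC 3 and 0.02 in LLC 4 for the 11 cap subunits other than ATPases. For the ATPases it was 1.36, 0.86, 0.37, 0.20, 0.15 and 0.06 in the same order of samples. For the alpha subunits it was 1.26, 0.80, 0.29, 0.14, 0.14 and -0.07. For the catalytic beta genes it was 0.49, 0.49, 0.01, 0.04, 0.07 and -0.14. The cap and the alpha ring thus had the same order of mice, whereas the catalytic genes were level between LLC 1 and LLC 5 and within 0.14 of Control elsewhere. The chaperones Psmd5, Psmd9 and Psmd10 averaged -0.23 in LLC 1 and 0.19 in LLC 5.

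**Figure D4:**
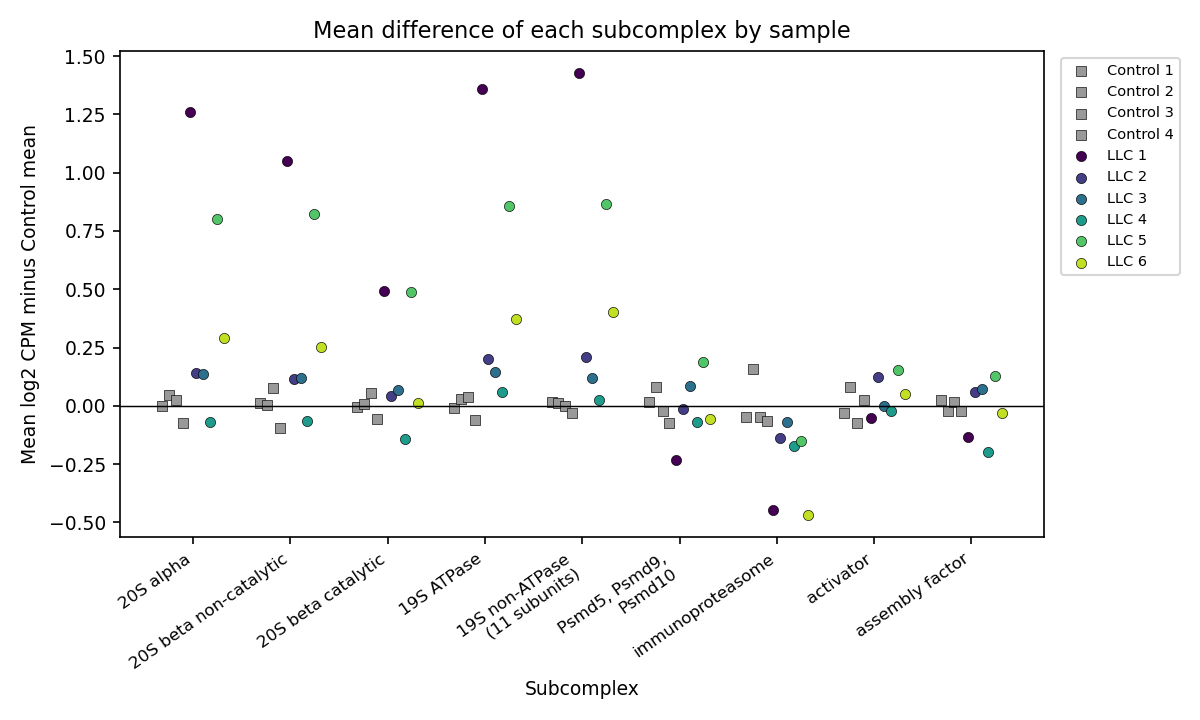
Mean log2 CPM minus the Control mean over the tested genes of each subcomplex, 1 point per sample, squares for Control and circles for LLC. LLC 1 and LLC 5 stand above all other samples for the core and the cap, LLC 1 lies below Control for the cap chaperones, and for the immunoproteasome 5 LLC samples lie below Control, LLC 6 lowest at -0.47, with LLC 3 (-0.07) level with the lowest Control sample (-0.06).

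Levels between genes were compared per kilobase of exon in Control. The median was 29.4 CPM per kilobase for the alpha genes, 48.3 for the beta genes, 42.8 for the ATPases and 37.4 for the 11 other cap subunits, against 2.65 for the cap chaperones, 6.85 for the core assembly factors and 11.3 for the activators. The inducible catalytic genes had 0.689, with Psmb10 at 5.08 ± 0.28, Psmb8 at 0.689 ± 0.12 and Psmb9 at 0.372 ± 0.092 (SD, n = 4). The constitutive catalytic genes were at 81.3 ± 3.5 for Psmb5, 55.5 ± 3.0 for Psmb6 and 54.1 ± 1.6 for Psmb7, of which the latter pair did not differ beyond its spread. With exons of the smaller GENCODE basic set these became 81.3, 130.1 and 159.5, and the group medians became 50.6 for the alpha genes, 81.3 for the beta genes, 58.1 for the ATPases, 46.2 for the 11 other cap subunits, 4.51 for the cap chaperones, 8.12 for the core assembly factors, 18.2 for the activators and 1.43 for the inducible genes. The order within the catalytic trio, and that of the alpha genes and the 11 cap subunits, thus depends on the transcripts counted. Psme4, at 42.3 ± 3.1, was the highest activator gene.

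The proteasome also depends on genes without a Psm symbol: cap subunits such as Adrm1, the core maturation factor Pomp, deubiquitinases, ubiquitin shuttles, and the pathway that activates the transcription factor Nfe2l1. Of 22 such genes listed, 21 were tested, and Paaf1 was not analysed here. The log2 fold change was positive for 17 and negative for 4, with a median of 0.36, and 18 were highest in LLC 1. Ddi2, whose product is the protease that cleaves Nfe2l1 into its active form, was the only gene past the threshold, 1 of 21 beside 5.63% of all genes in either direction and 1.65% in the higher one. It had 32.0, 37.7, 37.3 and 41.3 CPM in Control, and 51.2 in LLC 2 to 80.3 in LLC 5 in LLC. It rose by 0.87 ± 0.13 on the log2 scale (edgeR, Benjamini-Hochberg adjusted p = 0.00216) and was past the threshold without LLC 1 as well, at 0.86 with an adjusted p of 0.00119. With the replicate number as a block, a fit in which LLC 5 and LLC 6 add nothing to the group difference, none of the 21 was past the threshold. Nfe2l1 itself was at -0.0144 ± 0.12. Adrm1, a ubiquitin receptor of the cap, was at 0.78 ± 0.30 (adjusted p = 0.126 in edgeR), Pomp at 0.25 ± 0.13 and Sem1, a small lid subunit, at -0.0008 ± 0.10. The groups did not overlap, with LLC higher, for 6 of the 21 genes (Ddi2, Ubqln2, Ecpas, Zfand5, Akirin2 and Vcp), against the same 6.4% of all genes.

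**Figure D5:**
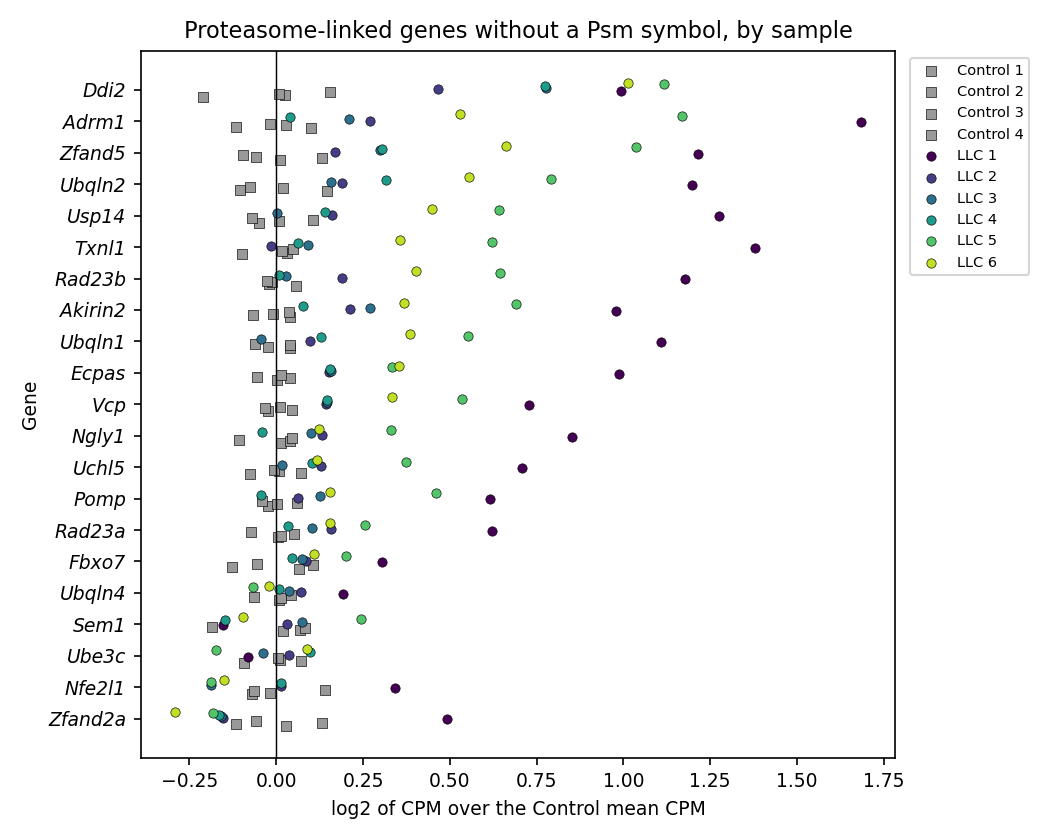
Log2 of the CPM of each sample over the Control mean for the 21 tested genes without a Psm symbol, squares for Control and circles for LLC. For Ddi2 all 6 LLC samples lie above Control with LLC 5 highest, whereas Adrm1 spreads from LLC 1, at 200.5 CPM, down to LLC 4, at 64.1 CPM, beside 57.5 to 66.8 CPM in Control.

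Interferon induces Psmb8, Psmb9, Psmb10, Psme1 and Psme2 together with genes of antigen processing, so 12 genes of that response were read beside them. Of the 12, 6 were positive and 6 negative with a median log2 fold change of -0.0109. Gbp3, an interferon-induced GTPase, was the only one past the threshold, 1 of 12 beside 5.63% of all genes. It had 3.23, 4.15, 3.41 and 3.07 CPM in Control and 1.23 to 2.61 CPM in LLC with no overlap, and it fell by 0.90 ± 0.21 on the log2 scale (edgeR, Benjamini-Hochberg adjusted p = 0.0264). It was past the threshold in no fit that left out Control 1, Control 2, Control 3, Control 4 or LLC 6 in turn, where its adjusted p reached 0.0918, nor with the replicate number as a block. Tap1, which lies next to Psmb9, was at -0.23 ± 0.15 and Tapbp at 0.15 ± 0.08, the latter with every LLC sample above Control.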

How the data were processed

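RNA libraries from the tibialis anterior of 4 Control and 6 LLC mice were analyzed, grouped by the sample titles. Each replicate is a separate mouse. Per the study's methods, stranded libraries of total RNA were read as pairs, mapped to mm10 with TopHat2 and counted per gene with HTSeq at default settings, and DESeq2 was used for their own comparison. The authors deposited raw read counts per gene as whole numbers. They are listed by Ensembl identifier although the methods name RefSeq genes, so the annotation release is not given in the sources used here. The strand setting is given only as the HTSeq default. Either can change counts of overlapping genes.

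Counts were fitted across all genes with edgeR 4.0.16 in R 4.3.3 (filterByExpr with a minimum count of 10, TMM factors, quasi-likelihood test, group as the only term, Benjamini-Hochberg adjustment over 12690 genes). A gene was past the threshold at an adjusted p of 0.05 or less and 1.5-fold or more. The study's methods give the same fold and a p of 0.05 or less without naming an adjustment. Its figure captions give a false discovery rate below 0.05. Log2 CPM used a prior count of 2. DESeq2 1.42.0 and limma 3.58.1 (voom with quality weights) gave alternatives, besides other scalings and filters, a replicate block and leaving out each library. Ratios of inducible to constitutive genes were compared by an exact permutation test over samples (scipy 1.17.1). Total counts were 16693209 to 21303084, so 3 counts equal 0.141 to 0.18 CPM, which covers counting error only. Pairs of replicates differed by 3.71 to 181.16 chi-square per degree of freedom over 21 pairs, so no library appeared to be a repeat deposit of another. Control pairs were at 3.71 to 8.11, LLC pairs with LLC 1 at 111.06 to 181.16 and the other LLC pairs at 7.92 to 56.41.

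Values by sample (each Control sample, and at least the lowest, median and highest of the 6 LLC samples, or a count range for Psme2b) are given for the catalytic and inducible beta genes, the activators, the inhibitor, Psmd4, Psma7 and Psmc2, which the study's text names, and the highest and lowest tested log2 fold change in each of the alpha, other beta, ATPase, non-ATPase and assembly groups. The members, the lists (related proteasome genes, interferon and antigen processing, fast fiber and leukocyte markers) and this rule were chosen with earlier results of these data known. Exonic lengths and overlaps came from GENCODE M21, and promoters from RefSeq GRCm38.p6.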

Additional observations from a re-analysis of the deposited data

Results flagged for a closer look

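Each measure below had 1 sample far from the others of its group, by Dixon's gap criterion. Psme1 was at 10.85 CPM in LLC 1, below the other 5 LLC samples by a gap of 0.771 of the group's range. Psme3 was at 67.72 CPM in LLC 1, above the others by a gap of 0.786 of the range. The mean log2 difference of the 3 immunoproteasome genes was 0.1597 in Control 2, above the other Control samples by a gap of 0.922 of the range. In all, 62 groups of samples were examined over 31 measures and 3 stood out, 2 of them in LLC 1, where chance alone gives about 1 in 20, or 3.1.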

How the results depend on the processing

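No member was past the threshold in edgeR under any scaling, filter, replicate block or left-out library, nor in limma voom, while DESeq2 called 3 members and an unadjusted p with 1.5-fold called 9. Over all genes, 715 were past it, against 475 with at least 10 counts in every sample, 1572 with an unadjusted p and 1.5-fold, and 415 to 966 without 1 library. The replicate numbers did not pair the samples (correlations of deviations -0.029, 0.009, -0.081 and 0.126, only Control 4 correlating best with its own number); with the replicate block 112 genes, 0 related genes and 0 interferon genes were past the threshold. Related genes called were 3 in DESeq2 and 1 to 2 without 1 library, and interferon genes 0 to 1. Members with no overlap ranged from 8 to 22 without 1 library, 22 being without LLC 4, and the share of all genes in those fits was not counted. Without 1 library the log2 ratio ranged from 0.1043 to 0.2439 (Psmb8 to Psmb5), -0.7946 to -0.4839 (Psmb9 to Psmb6) and -0.934 to -0.55 (Psmb10 to Psmb7). Signs reversed for Psmb5 in limma voom (-0.0108) and without LLC 1 and LLC 5 (-0.0539), for Psme2 with upper-quartile scaling (-0.0048), the replicate block (-0.0289), without LLC 5 (-0.0316 to 0.0653 over left-out libraries) and without both (-0.016), for Psme3 in limma voom (-0.0092) and without both (-0.0235), and without both for Psmb2 (-0.0035) and Psmg4 (-0.021); none of these was past the threshold, and the cause was not tested. With exons of the basic set, chosen after seeing the data, Control levels per kilobase were 130.1 for Psmb6, 159.5 for Psmb7, 1.432 for Psmb8, 1.006 for Psmb9 and 6.606 for Psmb10. At 12 to 36 counts a library, Psmb9 is limited by depth.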
